A study of Homo sapiens with 12 samples.

Results

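Box C/D small nucleolar RNAs (snoRNAs) were examined as the 275 gene names beginning with SNORD among 55765 in the RNA-seq count table of HEK293T cells given ERI2 siRNA or control siRNA. The 71 names with 60 or more counts summed over the 6 libraries are reported as members. Each group had 3 RNA-seq libraries. Cells of both groups were given 50 nM siRNA with a lipid reagent in a pair of transfections 48 hours apart, and were collected 72 hours after the later one. The protocol text also names ERI-1 siRNAs and microarrays, which are not used here. ERI2 encodes a putative exonuclease related to ERI1, which trims RNA ends. HEK293T is a human embryonic kidney line carrying the SV40 large T antigen; the growth protocol names HEK293 instead. With no rescue and no further siRNA against ERI2, off-target and on-target effects cannot be told apart.

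Box C/D snoRNAs are short nucleolar RNAs with conserved C and D boxes, bound by fibrillarin, NOP56, NOP58 and SNU13. Most pair with ribosomal RNA or the U6 spliceosomal RNA and direct 2′-O-methylation there, whereas U3, U8 and U14 are needed for cleavage of the ribosomal RNA precursor. In human cells most are released from introns of other genes, often genes for ribosomal proteins and translation factors, by debranching and exonuclease trimming, while U3, U8 and U13 have their own promoters.

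Of the 71 members, 65 matched a single RefSeq gene, and 54 of these lay inside a single gene of the RefSeq table; these containing genes numbered 39. Start sequences were listed for 31 of the 39. Transcripts of the protein synthesis machinery often begin with a C followed by a run of pyrimidines, the terminal oligopyrimidine start. A C followed by at least 4 C or T at the annotated start was found in 10 of 31 containing genes (32.3%), against 5.14% of all 27305 genes in the sequence table; only the annotated strand was read. The starts of the genes around the members described most below are shown for that run: 15 bases before the start in lower case and 15 bases from the start in capitals, in RefSeq GRCh38.p14. SNORD17 lies in SNX5 (chr20:17968780-17968809, minus strand), SNORD15B in RPS3 (chr11:75399503-75399532, plus strand), SNORD97 in EIF4G2 (chr11:10807982-10808011, minus strand), SNORD14A in RPS13 (chr11:17077653-17077682, minus strand) and SNORD83A in RPL3 (chr22:39319609-39319638, minus strand).
SNX5: gcaccgaaacgcggtCTTTCTCTAGACGCG
RPS3: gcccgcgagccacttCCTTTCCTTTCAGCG
RPS13: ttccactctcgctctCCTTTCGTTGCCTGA
EIF4G2: gaggttgtcggaagcACTTCCCTAACTTGC
RPL3: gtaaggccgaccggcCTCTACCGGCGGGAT
SNX5, RPS3 and RPS13 hold the run. EIF4G2 opens with A at the listed start shown, and the pyrimidines of RPL3 are broken by A within the window searched. These are annotated starts, not starts measured in these cells.

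The libraries held 29.1 to 32.6 (in units of 1e+06 counts) after ERI2 siRNA and 30.1 to 38.3 after control siRNA, with 0.384% to 0.505% and 0.191% to 0.634% of counts in box C/D names. ERI2 mRNA was 34.3 ± 1.67 CPM (counts per 1e+06 counts, TMM-scaled; SD, n = 3) after ERI2 siRNA and 55.7 ± 2.20 CPM after control siRNA, a log2 fold change of -0.70 (SE 0.0762; edgeR quasi-likelihood F-test, Benjamini-Hochberg adjusted p = 0.000683). The labels do not call the replicates separate cultures, so p-values measure only library-to-library spread, possibly technical in origin. Of the HEK293 line markers, NEFL averaged 25.8 and INA 15.2 CPM after ERI2 siRNA, against 36.5 and 21.2 CPM after control siRNA; both passed the test. PAX2 (1.04 and 0.762 CPM) and LHX1 (1.53 and 1.55 CPM) did not pass, and the summed level of the 6 markers ran from 55.3 to 65.6 CPM and from 72.3 to 86.3 CPM. Epithelial markers summed to 5.18 to 5.88 and 7.99 to 8.71 CPM, with CDH1 and EPCAM called lower and KRT5 listed at 0, and fibroblast markers to 13.5 to 17.8 and 15.6 to 18.6 CPM, with COL3A1 called lower, COL1A1 at 10.9 and 8.80 CPM not called, and COL1A2 listed at 0. Blood markers stayed at or under 1.60 CPM in sum, with HBB listed at 0. The part of these markers in the snoRNA values was not tested, and in bulk libraries a change in the mix of cells and a change of RNA per cell cannot be told apart.

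Control siRNA replicate 1 stood apart for SNORD3A, the main U3 gene, and ERI2 siRNA replicate 1 for SNORD97. Among 10315 genes with a mean of at least 10 CPM, a single library lay at least 8-fold below each of the other libraries of its group for 2 genes, SNORD3A and the U4 spliceosomal RNA RNU4-2, both in control siRNA replicate 1. RNU4-2 had 77.9 CPM there, 4.55% of the mean of the remaining control libraries, whereas RNU4-1 was at 98.6% of it. SNORD3A, SNORD97, SNORD14A, the counts of called members and the summed level are given with and without them.

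After ERI2 siRNA 1 box C/D member, SNORD17, was lower and 0 were higher among the 70 tested. SNORD17 reached 70.4% of its control level. Over all 18843 tested genes, 4.29% were called higher, 4.25% lower and 8.54% in either direction by the edgeR quasi-likelihood F-test at an adjusted p under 0.05. At an unadjusted p under 0.05, 7 members were higher and 5 lower, against 13.4% and 13.1% of all genes. DESeq2 called 0 higher and 2 lower, against 5.49% and 5.41% of all genes. With limma-voom 0 were higher and 1 lower, against 787 higher and 752 lower of the 18843 genes (8.17% in either direction). The member shares were thus below the background in each direction. That background was not matched for counts, and 36 of the 70 members had under 200 counts, so the lower shares cannot be read as a trait of snoRNAs. The median log2 fold change of the 70 members was 0.12, with 42 above and 28 below 0, and that of all genes was 0.003. Leaving out 1 library moved the members' median from 0.03 (without control siRNA replicate 2) to 0.26 (without control siRNA replicate 1).

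SNORD3A, U3 itself, which base-pairs with the precursor of 18S ribosomal RNA, held 67.1% of all box C/D counts. Its counts were 90160, 123471 and 89570 in ERI2 siRNA replicates 1, 2 and 3, against 3302, 98009 and 148706 in control siRNA replicates 1, 2 and 3. Control siRNA replicate 1 lay 41.7-fold below the mean CPM of the remaining control libraries, and the highest value was also a control. Over all libraries SNORD3A averaged 3159 ± 441 CPM after ERI2 siRNA and 2641 ± 2544 CPM after control siRNA (SD, n = 3 each). The groups overlapped, and the log2 fold change of 0.26 (SE 1.32) did not pass (edgeR quasi-likelihood F-test, Benjamini-Hochberg adjusted p = 0.928). Without control siRNA replicate 1 it was -0.31 (adjusted p = 0.373 in the same test), so its sign rested on that library.

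The 4 other U3 names did not share the low value of control siRNA replicate 1. SNORD3B-1, SNORD3B-2, SNORD3C and SNORD3D summed to 17.5, 15.7 and 13.96 CPM after ERI2 siRNA and to 15.1, 14.5 and 22.1 CPM after control siRNA. The control library at 93.9 CPM of SNORD3A thus sat between the other controls for its relatives. Their log2 fold changes ran from -0.24 (SNORD3C) to 0.17 (SNORD3D), and 0 of the 4 passed at an adjusted or an unadjusted p under 0.05. These genes are near-identical copies, so reads may have been split or dropped among them.

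**Figure D1:**
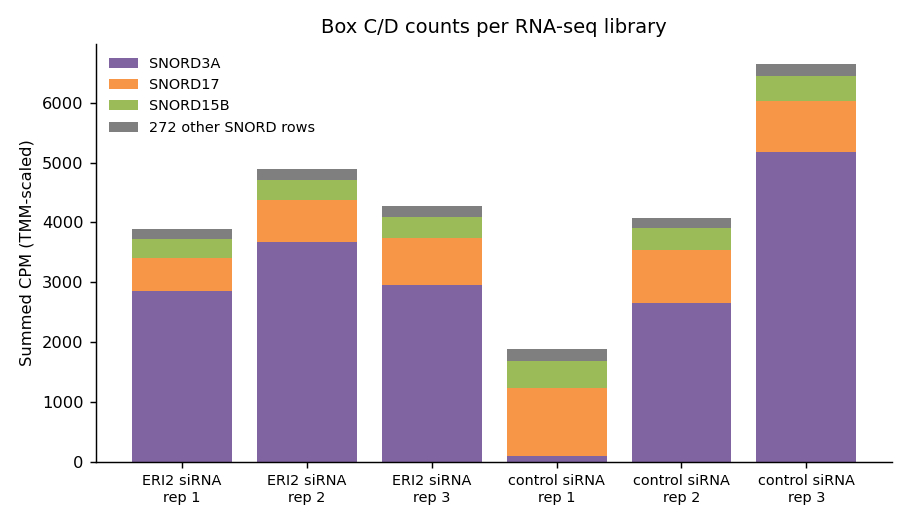
Stacked bars of CPM (TMM-scaled, linear axis from 0) for SNORD3A, SNORD17, SNORD15B and all other SNORD names in each library, ERI2 siRNA on the left and control siRNA on the right. The SNORD3A segment is 93.9 CPM in control siRNA replicate 1 and at least 2647 CPM in every other library.

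SNORD17, a guide RNA for 28S ribosomal RNA methylation, was the most abundant member by count outside U3, with 19.7% of box C/D counts. It had 17176, 23718 and 23716 counts in ERI2 siRNA replicates 1, 2 and 3, against 40002, 33135 and 24491 counts in control siRNA replicates 1, 2 and 3. In CPM these were 544, 704 and 783 after ERI2 siRNA and 1138, 895 and 854 after control siRNA, so the groups did not overlap, though the nearest libraries lay close. The lowest library was ERI2 siRNA replicate 1 and the highest was control siRNA replicate 1. SNORD17 averaged 677 ± 121 CPM after ERI2 siRNA and 962 ± 153 CPM after control siRNA (SD, n = 3 each). Its log2 fold change was -0.51 (SE 0.137; edgeR quasi-likelihood F-test, Benjamini-Hochberg adjusted p = 0.0364).

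The call on SNORD17 was close to the threshold. Its adjusted p in the same test was 0.0940 without ERI2 siRNA replicate 2, 0.0603 without control siRNA replicate 1, 0.0602 without control siRNA replicate 2 and 0.0629 without control siRNA replicate 3, with log2 fold changes from -0.60 to -0.37. Under total library size and upper-quartile scaling the adjusted p was 0.135 and 0.0596. The difference between the replicate 1 libraries was -1.06 on a log2 scale and the mean difference over replicates 2 and 3 was -0.24.

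SNORD15B, which lies in an intron of the ribosomal protein gene RPS3 and guides 28S ribosomal RNA methylation, held 8.92% of box C/D counts. It had 10039, 11226 and 10899 counts after ERI2 siRNA, against 15842, 13733 and 11841 counts after control siRNA. At 318, 333 and 360 CPM after ERI2 siRNA and 451, 371 and 413 CPM after control siRNA, every ERI2 siRNA library lay below every control library. The log2 fold change of -0.29 (SE 0.0892) did not pass in the edgeR quasi-likelihood F-test (Benjamini-Hochberg adjusted p = 0.0596). It passed with DESeq2 (adjusted p = 0.0146), with edgeR and no count filter (0.0189) and with edgeR without control siRNA replicate 2 (0.0498). It did not pass with limma-voom (adjusted p = 0.0531) or with edgeR under total library size (0.134). Leaving out any other single library gave an edgeR adjusted p from 0.0786 to 0.185. Its sister copy in the same gene, SNORD15A, had 0.883 ± 0.187 CPM after ERI2 siRNA and 1.003 ± 0.133 CPM after control siRNA and overlapped between groups (log2 fold change -0.17).

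SNORD97, inside the translation factor gene EIF4G2, is known to guide methylation of the elongator methionine tRNA. It had 40, 403 and 262 counts after ERI2 siRNA and 769, 624 and 346 counts after control siRNA. ERI2 siRNA replicate 1 lay at 12.3% of the mean CPM of the other ERI2 siRNA libraries, and the groups did not overlap in CPM, though the nearest libraries of the groups were nearly equal. Its log2 fold change of -1.21 (SE 0.760) was the lowest of any tested member, and it did not pass (edgeR quasi-likelihood F-test, Benjamini-Hochberg adjusted p = 0.394). Without the low library the fold change was -0.73 and passed (adjusted p = 0.0447 in the same test), and with replicates 2 and 3 alone it was -0.50 (adjusted p = 0.0408). The difference was therefore negative with and without that library.

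U13 (SNORD13), which aids acetylation of 18S ribosomal RNA and has its own promoter, showed no difference beyond the spread. It had 1448, 1224 and 1191 counts after ERI2 siRNA and 1410, 1226 and 1356 counts after control siRNA. The means were 40.5 ± 4.89 and 40.2 ± 7.07 CPM (SD, n = 3 each), a log2 fold change of 0.01 (SE 0.119). Of the U14 copies, which aid 18S ribosomal RNA maturation in yeast, SNORD14A in RPS13 had 59, 118 and 83 counts after ERI2 siRNA and 133, 100 and 77 after control siRNA. SNORD14E in HSPA8 had 102, 95 and 75 counts after ERI2 siRNA and 77, 64 and 52 after control siRNA. SNORD14A overlapped between groups (log2 fold change -0.18), while SNORD14E was higher in CPM in each ERI2 siRNA library than in any control library (0.57; edgeR quasi-likelihood F-test, Benjamini-Hochberg adjusted p = 0.0896). The sign of SNORD14A rested on the replicate 1 libraries: its log2 fold change was 0.02 without that of ERI2 siRNA, 0.01 without that of control siRNA and 0.21 with replicates 2 and 3 alone. U8 (SNORD118) and SNORD22 were listed at 0 counts in all 6 libraries, which allows up to 3 counts in each by counting error alone.

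Guides of U6 methylation, SNORD7, SNORD8, SNORD9, SNORD67 and SNORD94, were grouped after their values were seen, and 0 of these 5 passed. Their log2 fold changes ran from -0.28 (SNORD8) to 0.94 (SNORD7), and 4 were below 0. Without control siRNA replicate 3, SNORD94 and SNORD9 were above 0, at 0.14 and 0.02, while SNORD8 stayed below 0 at -0.16. SNORD94, in PTCD3, had 478, 514 and 435 counts after ERI2 siRNA and 510, 456 and 608 counts after control siRNA, and the groups overlapped. SNORD8, in the chromatin remodeller gene CHD8, had 288, 309 and 270 counts after ERI2 siRNA and 380, 342 and 377 counts after control siRNA; its CPM groups did not overlap. Its neighbour in the same gene, SNORD9, had 220, 262 and 199 counts after ERI2 siRNA and 256, 246 and 310 counts after control siRNA, and overlapped. SNORD7 had 34, 20 and 28 counts after ERI2 siRNA and 15 in each control library; its log2 fold change of 0.94 (SE 0.348) was the highest of any tested member and did not pass (edgeR quasi-likelihood F-test, Benjamini-Hochberg adjusted p = 0.104).

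**Figure D2:**
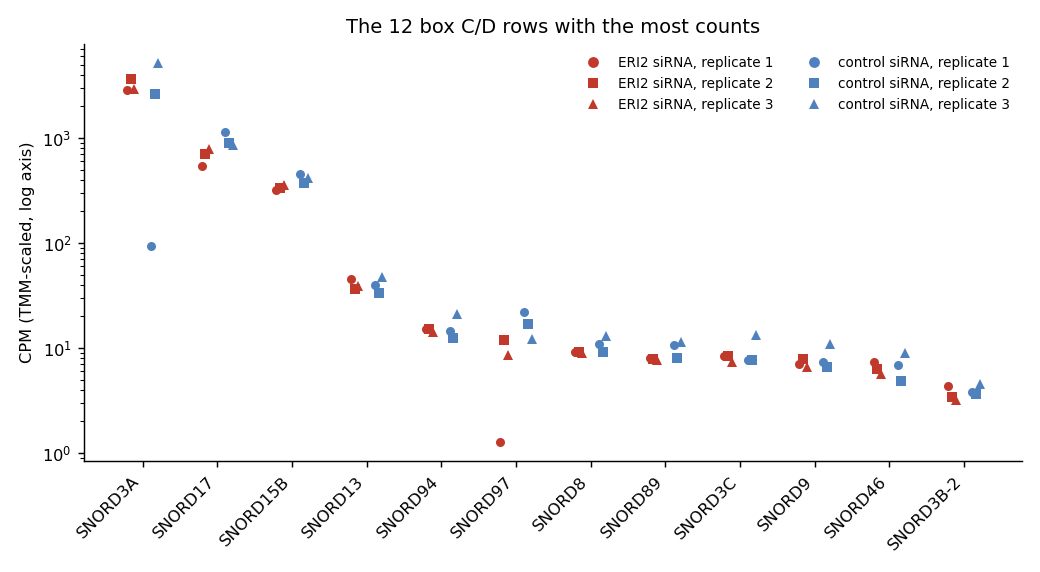
CPM (TMM-scaled, log axis) of the 12 members with the most counts in each library, with ERI2 siRNA libraries in red to the left of control siRNA libraries in blue, and the marker shape giving the replicate number. SNORD17, SNORD15B, SNORD97, SNORD8 and SNORD89 do not overlap between groups, and SNORD3A of control siRNA replicate 1 and SNORD97 of ERI2 siRNA replicate 1 lie far below their group.

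The sign of the fold change differed with the number of counts of the member. Of the 11 tested members with 1000 or more counts, 2 were above and 9 below 0, with a median log2 fold change of -0.24. Of the 23 with at least 200 but under 1000 counts, 17 were above and 6 below 0 (median 0.31), and of the 36 with under 200 counts, 23 were above and 13 below 0 (median 0.18). Groups did not overlap for 8 higher and 6 lower tested members, against 14.1%, 15.6% and 29.7% of all genes for higher, lower and either direction. The 11 most abundant supplied 0 of the higher and 5 of the lower ones, and the lower one among the rest was SNORD72. These separations are in TMM-scaled CPM, and the groups of those 5 overlapped when counts were divided by total library counts. SNORD8 was at 9.17 CPM in ERI2 siRNA replicate 2 and 9.24 CPM in control siRNA replicate 2. SNORD89 was at 8.02 CPM in ERI2 siRNA replicate 1 and 8.08 CPM in control siRNA replicate 2. Counts of the low members were small: the median coefficient of variation within the ERI2 siRNA group was 8.68% at 1000 or more counts and 32.5% at under 200 counts, and within the control siRNA group it was 27.2% and 28.6%. Counts of SNORD17 were 213% to 486% of those of SNX5 around it. Among low members, SNORD37 had 0.00306% to 0.021% of the counts of EEF2, and SNORD105B 1.32% to 7.96% of those of PPAN. Whether such counts came from the snoRNA or from unspliced RNA of the containing gene was not tested.

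**Figure D3:**
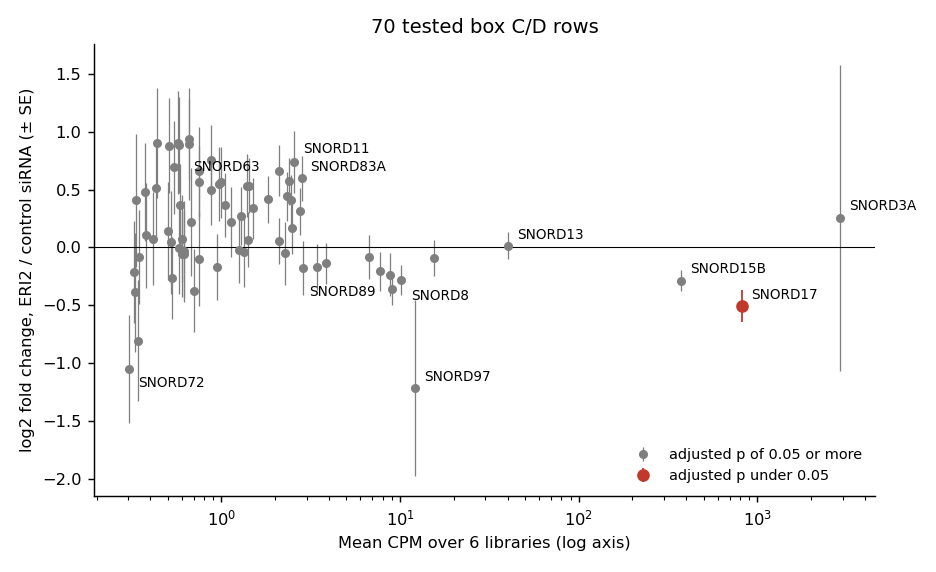
Log2 fold change (ERI2 siRNA over control siRNA, bars ± SE) against mean CPM over 6 libraries (log axis) for the 70 tested members, with the member at an adjusted p under 0.05 in red. SNORD17 at -0.51 is the red point, most members under 10 CPM lie above 0, and SNORD3A has an SE of 1.32.

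Among the members of middle abundance most values were higher after ERI2 siRNA, and none passed the edgeR test with its count filter and all 6 libraries. SNORD83A, in RPL3 and named here after its values were seen, had 84, 122 and 117 counts after ERI2 siRNA and 70, 87 and 68 counts after control siRNA. It averaged 3.38 ± 0.635 CPM after ERI2 siRNA and 2.24 ± 0.213 CPM after control siRNA without overlap (log2 fold change 0.60, SE 0.197; edgeR quasi-likelihood F-test, Benjamini-Hochberg adjusted p = 0.0740). SNORD63, in the mitochondrial chaperone gene HSPA9, had 69, 85 and 93 counts after ERI2 siRNA and 54, 72 and 40 counts after control siRNA, and its CPM groups did not overlap either (0.66, adjusted p = 0.0750 in the same test). SNORD11, in NOP58, had 64, 133 and 111 counts after ERI2 siRNA and 89, 66 and 41 counts after control siRNA. It overlapped through the replicate 1 libraries (0.74; adjusted p = 0.0982 in the edgeR quasi-likelihood F-test, and 0.0167 with no count filter). SNORD20 and SNORD100, also named after their values were seen, lie in NCL and RPS12 and were at 133% and 144% of the control level without overlap; their adjusted p in the same edgeR test was 0.211 and 0.172.

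The remaining members with high or low ratios had under 200 counts in all, apart from SNORD89, and 0 of them passed. SNORD39 (0.91), SNORD1B (0.90), SNORD111 (0.89), SNORD58 (0.88), SNORD53_SNORD92 (0.88), SNORD103B (0.75) and SNORD42 (0.69) had the highest log2 fold changes beside those above. SNORD72 (-1.05), SNORD111B (-0.81), SNORD105B (-0.39), SNORD59A (-0.37), SNORD89 (-0.36) and SNORD104 (-0.26) were among the lowest. SNORD111 had 19, 39 and 25 counts after ERI2 siRNA and 32, 7 and 8 counts after control siRNA, and SNORD111B, in the same gene SF3B3, had 10, 11 and 3 counts after ERI2 siRNA and 23, 16 and 6 counts after control siRNA. Both overlapped between groups. SNORD72, in RPL37, had 3, 9 and 7 counts after ERI2 siRNA and 14, 17 and 11 counts after control siRNA, and did not overlap (edgeR quasi-likelihood F-test, Benjamini-Hochberg adjusted p = 0.167). SNORD89, in RNF149, had 253, 264 and 235 counts after ERI2 siRNA and 378, 299 and 330 counts after control siRNA. Its CPM groups did not overlap (adjusted p = 0.115 in the edgeR quasi-likelihood F-test; 0.0442 without control siRNA replicate 2). SNORD39, SNORD42, SNORD63 and SNORD3D each stood for more than 1 Ensembl gene in the reference table, and SNORD38, SNORD58, SNORD73 and SNORD53_SNORD92 matched no single RefSeq gene, so the counts of these names may add copies.

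The replicate 1 libraries and replicates 2 and 3 gave different median differences over the members. The median log2 difference over the 70 tested members was -0.03 between the replicate 1 libraries and 0.23 as the mean of replicates 2 and 3, against -0.01 and 0.002 over all genes. In 24 members both were above 0, in 14 both were below 0 and in 32 the signs differed. The replicate numbers were not taken to pair libraries, and these signs were not counted over all genes. Members with 1000 or more counts had medians of -0.06 between the replicate 1 libraries and -0.23 over replicates 2 and 3. Those with at least 200 but under 1000 counts had medians of 0.06 and 0.34, and those with under 200 counts had medians of -0.10 and 0.23. These differences were taken on CPM plus 0.5, which draws the values of members with few counts toward 0. In the edgeR fit of replicates 2 and 3 alone the median of the members was 0.39.

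With replicates 2 and 3 alone, 9 members were called higher and 2 lower by the edgeR quasi-likelihood F-test after Benjamini-Hochberg adjustment. In that fit 13.9% and 14.1% of all genes were called higher and lower. The 9 were SNORD11, SNORD19, SNORD43, SNORD58, SNORD63, SNORD69, SNORD83A, SNORD101 and SNORD111, and the 2 were SNORD17 and SNORD97. Their log2 fold changes there included 1.23 for SNORD11, 1.37 for SNORD58 and 2.10 for SNORD111. Without control siRNA replicate 1 alone, 2 members (SNORD11 and SNORD111) were called higher and 0 lower, against 6.33% and 5.32% of all genes. Without ERI2 siRNA replicate 1 alone, 4 (SNORD11, SNORD58, SNORD63 and SNORD83A) were called higher and 2 (SNORD17 and SNORD97) lower, against 7.31% and 6.81% of all genes. The counts of called members thus depended on which libraries entered, those of replicate 1 among them. The shares of all genes called moved with the libraries as well. No label names a batch that sets the replicate 1 libraries apart.

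**Figure D4:**
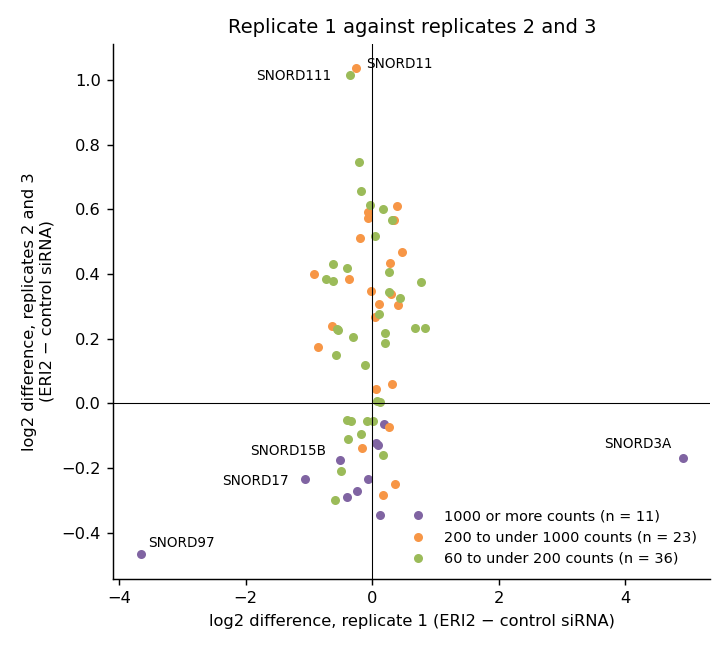
Log2 difference (ERI2 siRNA minus control siRNA, CPM plus 0.5) between the replicate 1 libraries on the horizontal axis and as the mean of replicates 2 and 3 on the vertical axis for the 70 tested members, coloured by counts. SNORD3A (4.92 and -0.17) and SNORD97 (-3.66 and -0.47) lie far out on the horizontal axis, and 46 of the members lie above 0 on the vertical axis.

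The 5 members whose log2 CPM over the 6 libraries was most like that of SNORD17 were SNORD15B (Pearson r = 0.92), SNORD97 (0.89), SNORD72 (0.88), SNORD14A (0.74) and SNORD104 (0.71). The 6 points share libraries and scaling, and the values are descriptions of likeness. SNORD17, SNORD15B, SNORD97 and SNORD14A had their lowest ERI2 siRNA value in replicate 1 and their highest control siRNA value in replicate 1. SNORD72 and SNORD104 shared the low ERI2 siRNA value but had their highest control value in replicates 2 and 3. The pattern was not particular to these members: SNORD11, SNORD19 and SNORD111, among others, also had it, with log2 fold changes above 0 (0.74, 0.31 and 0.89).

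Most SNORD names were not seen. Of 275, 174 had 0 counts in all 6 libraries and 30 had 1 to 59. Of 117 names of the imprinted clusters on chromosomes 14 and 15, 110 had 0 counts, 6 had 1 to 59 and 1 reached 60. That 1, SNORD112, had 17, 42 and 30 counts after ERI2 siRNA and 20, 30 and 10 counts after control siRNA, and the groups overlapped (log2 fold change 0.66, SE 0.385). Of 7 names inside GAS5, a host of many snoRNAs, 5 had 0 counts, and SNORD78 was the sole member, with 37, 76 and 49 counts after ERI2 siRNA and 42, 56 and 37 counts after control siRNA. Of 6 names inside SNHG1, 5 had 0 counts and SNORD27 had 29 in all. Just inside the minimum lay SNORD72 (61 counts over the 6 libraries), SNORD92 (62) and SNORD37 (64), and just outside it SNORD36C (59), SNORD105 (56) and SNORD116 (52). SNORD92, the untested member, had 15, 10 and 16 counts after ERI2 siRNA and 9, 9 and 3 counts after control siRNA, without overlap.

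Of 39 containing genes, 1 was called higher and 0 lower by the edgeR quasi-likelihood F-test; 6 were higher and 1 lower with an unadjusted p below 0.05, and DESeq2 called 2 and 0. Over all genes these shares were 4.29% and 4.25%, 13.4% and 13.1%, and 5.49% and 5.41%. With replicates 2 and 3 alone, 7 containing genes were called higher and 13 lower, against 13.9% and 14.1% of all genes. NOP58, a core box C/D protein that also holds SNORD11, SNORD11B and SNORD70, was the gene called, at 175 ± 15.03 CPM after ERI2 siRNA and 136 ± 7.59 CPM after control siRNA (log2 fold change 0.36, SE 0.0790; adjusted p = 0.0150 in the edgeR quasi-likelihood F-test). SNX5, around SNORD17, had 255, 263 and 270 CPM after ERI2 siRNA and 234, 226 and 221 CPM after control siRNA, opposite in sign to SNORD17 (0.21; adjusted p = 0.0778 in the same edgeR test). RPS3, around SNORD15B, and EIF4G2, around SNORD97, measured -0.13 and -0.03 and overlapped between groups.

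Over 53 tested pairs the log2 fold change of the member and that of its containing gene had a Pearson r of 0.01 and a Spearman rho of 0.02, with the same sign in 31. These pairs share 39 genes and the same 6 libraries. Members inside ribosomal protein genes (n = 10) had a median of 0.16, with 5 above and 5 below 0, and members inside non-coding genes (n = 7) had 0.06, with 4 above and 3 below 0. Members inside other coding genes (n = 36) had 0.06, with 19 above and 17 below 0, and members with no single containing gene (n = 17) had 0.26, with 14 above and 3 below 0. That median of 0.26 was the value of SNORD3A itself, which was -0.31 without control siRNA replicate 1. Names that matched no single RefSeq gene or lay inside several genes were placed in this group, so it is not a set without hosts. Members whose containing gene had a pyrimidine start (n = 14) had a median of -0.03, with 6 above and 8 below 0, and those whose gene had none (n = 26) had 0.11, with 14 above and 12 below 0. Within the genes with a pyrimidine start, members ran from -0.51 (SNORD17) to 0.53 (SNORD100).

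**Figure D5:**
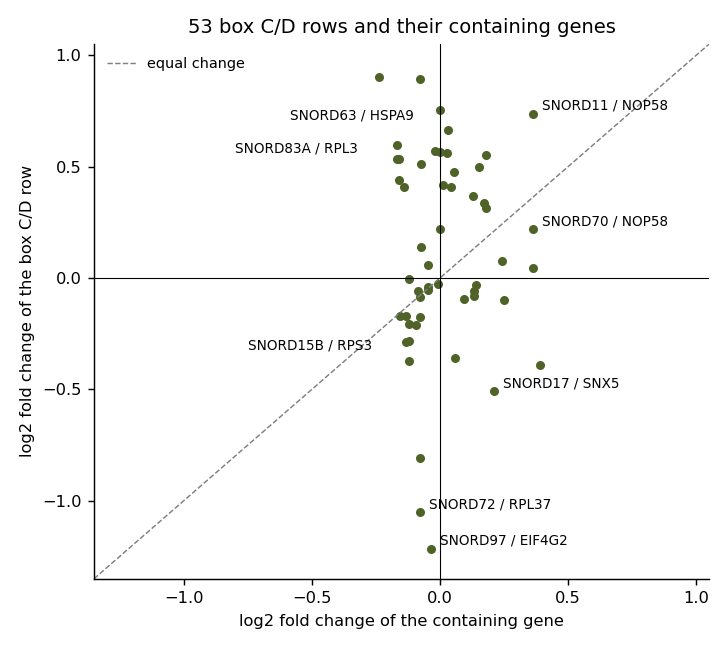
Log2 fold change (ERI2 siRNA over control siRNA) of each of 53 tested members on the vertical axis against that of its containing gene on the horizontal axis, with a dashed line of equal change. Members span -1.21 to 0.90 while the containing genes span -0.24 to 0.39, with SNORD17 below and SNX5 above 0.

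Among 17 genes for box C/D core proteins, U3 proteins and assembly factors, 1 was called higher and 0 lower by the edgeR quasi-likelihood F-test. With an unadjusted p below 0.05, 3 were higher and 0 lower, and DESeq2 called 2 and 0. The shares of all genes called higher and lower were 4.29% and 4.25%, 13.4% and 13.1%, and 5.49% and 5.41% by these rules. The gene called was NOP58. Its partner NOP56 was at 360 ± 6.90 CPM after ERI2 siRNA and 312 ± 14.2 CPM after control siRNA (log2 fold change 0.21; edgeR quasi-likelihood F-test, Benjamini-Hochberg adjusted p = 0.0995), and the assembly ATPase RUVBL2 at 140 ± 4.80 and 121 ± 9.74 CPM (0.21; adjusted p = 0.0932). The methyltransferase FBL (-0.09) and the U3 protein RRP9 (0.10) overlapped between groups. The call on NOP58 was lost without ERI2 siRNA replicate 3 and without control siRNA replicate 3.

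Of 24 non-coding snoRNA host genes, 18 were tested, and 1 was called higher and 0 lower by the edgeR quasi-likelihood F-test, with 5 higher and 2 lower with an unadjusted p below 0.05 and 1 and 0 by DESeq2. The shares of all genes were 4.29% higher and 4.25% lower, 13.4% and 13.1% unadjusted, and 5.49% and 5.41% by DESeq2. SNHG17 was at 83.0, 84.3 and 87.4 CPM after ERI2 siRNA and 66.9, 62.7 and 60.4 CPM after control siRNA (log2 fold change 0.42, SE 0.0701; edgeR quasi-likelihood F-test, Benjamini-Hochberg adjusted p = 0.00516). GAS5 measured 0.17 without overlap and did not pass (adjusted p = 0.134 in the same test).

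Summed over all names, box C/D RNA was 4353 ± 503.5 CPM after ERI2 siRNA and 4200 ± 2390 CPM after control siRNA (SD, n = 3 each), and the groups overlapped. Its log2 ratio of 0.05 had no stable direction: it was -0.30 without control siRNA replicate 1, -0.04 without ERI2 siRNA replicate 2 and 0.53 without control siRNA replicate 3. Without SNORD3A the sum was 1036, 1226 and 1322 CPM after ERI2 siRNA and 1782, 1425 and 1468 CPM after control siRNA, 76.6% of the control level without overlap. Without SNORD17 and SNORD15B as well it was 180 ± 7.59 CPM after ERI2 siRNA and 185 ± 22.4 CPM after control siRNA, with overlap, so the difference of the sum lay in those 2 names. Other short nuclear RNAs were also lower in sum: H/ACA snoRNA names reached 2931 ± 183 CPM after ERI2 siRNA and 3626 ± 353 CPM after control siRNA (80.8%), and spliceosomal and Cajal body names 10287 ± 572 and 12234 ± 1025 CPM (84.1%), both without overlap. RN7SL1, the signal recognition particle RNA, was at 76.9% without overlap, whereas RN7SK, RMRP and RPPH1 overlapped between groups. These levels are TMM-scaled. Divided by total library counts, the box C/D sum without SNORD3A was at 79.7% of the control level and the H/ACA sum at 84.1%. Spliceosomal and Cajal body names were then at 87.5% and RN7SL1 at 80.3%, and the H/ACA groups overlapped. No test was made on these sums.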

How the data were processed

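RNA-seq counts per gene were deposited by the authors as 1 table of raw read counts with 6 library columns, each matched to a sample by name. The submitters' processing notes list genome build hg19, TopHat2 2.0.10, HTSeq 0.6.1p1 and CASAVA 1.8.2 without saying what each did. Per the labels' protocols, a TruSeq RNA kit was used on column-purified total RNA; how RNA was selected, the strand setting and the annotation were not given in the sources used here. Such libraries and counting can lose short RNAs, reads in shared introns and reads of near-identical copies. The miRNA-seq table was not used here.

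Counts were filtered (filterByExpr), scaled by TMM and tested over 18843 genes with the robust quasi-likelihood F-test of edgeR 4.0.16 (R 4.3.3), Benjamini-Hochberg adjusted p under 0.05, with no replicate block. DESeq2 1.42.0, limma-voom (3.58.1), other scalings and filters, the replicate block, leaving out libraries and replicates 2 and 3 alone were alternatives. SE is the absolute log2 fold change over the square root of F.

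The members and lists were chosen with earlier results of these data known. Named members were those called; U3, U8, U13, U14, imprinted, GAS5, SNHG1 and SNORD22 names; the 10 highest in CPM; the 10 largest rises and falls; those beside the count minimum; and the 5 most like SNORD17. Containing genes, names and start sequences came from RefSeq GRCh38.p14 tables. The strand of containing genes could not be compared, and no lengths were used, so levels were not compared between genes. The snoRNA sequences were not used here. A count of 0 allows up to 3 counts, for counting error only.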

Additional observations from a re-analysis of the deposited data

How the results depend on the processing

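The 31 members covered by the naming rule had 513 values over those of the 19 alternatives that apply to single members. Of these values, 486 kept their side of the threshold, and among them 14 uncalled values changed sign. Another 7 (all for SNORD17) lost the call, 20 gained one and 0 called values reversed. The ERI2 call and the sign of the sum without SNORD3A held in every alternative run. Members called were 0 higher and 1 lower. Higher members became 1 with no count filter, 4 at an adjusted p under 0.1, 9 with replicates 2 and 3 alone and 0 to 4 without 1 library; lower members became 2 with DESeq2, no count filter, an adjusted p under 0.1 or replicates 2 and 3 alone, 0 under total library size or the upper quartile, and 0 to 2 without 1 library. Leaving out control siRNA replicate 2 called SNORD15B and SNORD89 lower instead of SNORD17. The share of all genes called in either direction moved as well, from 8.54% in the main fit. It was 10.9% with DESeq2, 7.64% under total library size, 8.29% under the upper quartile and 7.49% with no count filter. At an adjusted p under 0.1 it was 16.1%, with replicates 2 and 3 alone 28%, and without 1 library 1.93% to 14.1%. Containing genes called higher (1) became 2 with DESeq2 or the upper quartile, 3 under total library size or an adjusted p under 0.1, 7 with replicates 2 and 3 alone and 0 to 4 without 1 library; those called lower (0) became 13 with replicates 2 and 3 alone and 0 to 1 without 1 library. Protein genes called higher (1) became 2 with DESeq2, 3 under total library size, the upper quartile or an adjusted p under 0.1, and 0 to 1 without 1 library; 1 was lower with replicates 2 and 3 alone. Non-coding hosts called higher (1) became 3 under total library size or an adjusted p under 0.1 and 4 with replicates 2 and 3 alone, and those called lower (0) became 2 with replicates 2 and 3 alone and 0 to 1 without 1 library. The median of the members, 0.12, was 0.39 with replicates 2 and 3 alone. Total library size moved the median of all genes to 0.06. The cause of these changes was not tested. With the replicate number as a block, 0 members, 0 containing genes, 0 protein genes and 0 non-coding hosts were called higher and 0 members lower (SNORD17 log2 fold change -0.51, edgeR adjusted p = 0.153), and 105 genes were higher and 98 lower overall; same-numbered libraries did not deviate together (correlations of -0.30, -0.08 and -0.10), so the numbers were not taken to pair the libraries. Tested members under 200 counts had SEs of up to 0.58 (SNORD37) on the log2 scale, which limits what their values can show.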
